A study of Homo sapiens with 10 samples.

Results

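The genes described here encode the proteins of the cytosolic ribosome. They were chosen by name, as genes called RPL or RPS with a number, RPLP0 to RPLP2, RPSA, RPS4X or RPS27L, with a mean of at least 10 CPM, read counts scaled to library size, over a table's samples. All 78 genes that carry such a name reached that level in both tables, of 35606 genes listed, and 46 of them encode proteins of the large subunit and 32 proteins of the small subunit. The name rule used no measured difference, but the set was chosen with earlier results of these data known. The genes were measured by RNA-seq in 10 samples of QGP-1, a long-established line grown from a human neuroendocrine tumor of the pancreas, that form 5 groups of 2. The group sgPIKFYVE-1 carried CRISPR interference with a single guide against PIKFYVE, the lipid kinase that makes PI(3,5)P2 on endosomes and lysosomes, through a dCas9 fused to the KRAB repressor. The group sgNC carried the same system with a control guide. The other 3 groups received DMSO, 1 µM apilimod (an inhibitor of the PIKfyve enzyme) or 100 nM Torin-1 (an inhibitor of the mTOR kinase). The labels give 24 h for both drugs, whereas the study's figure legends for these RNA-seq data give a shorter time. No source states that the 2 samples of a group came from separate cultures, so p-values measure the spread between these samples only.

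A ribosome holds 1 copy of nearly all of its proteins, so their genes are expressed at high and similar levels, and their mRNAs make up a sizeable part of the mRNA in a growing cell. Many of these mRNAs begin with a C followed by an unbroken run of C and T, the terminal oligopyrimidine (TOP) motif. mTOR complex 1 controls how well TOP mRNAs are translated, and the RNA-binding protein LARP1 binds the motif and stabilizes them when mTOR is inhibited. RNA-seq measures the amount of these mRNAs, not their translation.

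The start of the mRNA could be read for 63 of the 78 genes, from RefSeq on GRCh38.p14. A TOP start, meaning a C at the annotated start base followed by at least 4 C or T, was found in 46 of them (73.0%), against 942 of 15779 other coding genes (5.97%). When such a run could begin within 10 bases of the annotated start, it was found in 57 of the 63 (90.5%) and in 40.9% of the other genes. In the 250 bases before to 50 bases after the start, searched on both strands, CCGGAAG, an ETS factor motif, occurred in 36.5% of the ribosomal protein genes and 16.4% of the others. The YY1-type motif AAGATGGCG occurred in 7.94% and 3.19%, the E-box CACGTG in 6.35% and 10.9%, and TATAA in 19.0% and 21.0%. Windows from 10 bases before to 20 bases after the annotated start are printed for genes that the results turn on, with a TOP run in capitals. The windows of RPL13A (chr19:49487598-49487627, forward strand), RPL10 (chrX:154398367-154398396, forward), RPS6 (chr9:19380217-19380246, reverse), RPLP1 (chr15:69452808-69452837, forward), RPL35 (chr9:124861938-124861967, reverse) and RPS27 (chr1:153990752-153990781, forward) hold one:
RPL13A: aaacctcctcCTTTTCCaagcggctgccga
RPL10: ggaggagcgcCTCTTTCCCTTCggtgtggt
RPS6: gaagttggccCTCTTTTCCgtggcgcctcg
RPLP1: ggcgcgagagCCCCTTTCCTCagctgccgc
RPL35: cgcctacttcCTCTTTCCCTCggagcgggc
RPS27: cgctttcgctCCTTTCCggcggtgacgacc

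The annotated starts of RPS26 (chr12:56041908-56041937, forward), RPS15 (chr19:1438386-1438415, forward), RPL4 (chr15:66504836-66504865, reverse), RPL3 (chr22:39319604-39319633, reverse) and RPS27L (chr15:63157458-63157487, reverse) are not followed by a TOP run. These letters show only what stands at the annotated base, since a start a few bases away would give another result:
RPS26: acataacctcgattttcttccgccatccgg
RPS15: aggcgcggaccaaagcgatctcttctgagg
RPL4: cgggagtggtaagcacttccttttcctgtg
RPL3: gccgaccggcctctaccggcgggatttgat
RPS27L: gatgccgagcgcagatcgcttgcagcttgc

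The samples held between 9.26 and 13.5 M reads, estimated from the spacing of low values. PIKFYVE was at 99.1 ± 2.24 CPM (SD, n = 2) with sgNC and at 11.7 ± 1.18 CPM (SD, n = 2) with sgPIKFYVE-1, a log2 difference of -2.98 (SE 0.098, limma adjusted p = 1.22e-14). Of 9 neuroendocrine markers 8 had a mean of at least 1 CPM, with a summed level between 6424 and 9694 CPM, and NEUROD1 did not. All 4 epithelial markers were detected, and the leukocyte markers PTPRC, CD3E and CD68 were each under 1 CPM. Of 3 fibroblast markers 1 had a mean of at least 1 CPM, with a sum of at most 10.4 CPM. Of 3 endothelial markers 1 did, with a sum of at most 3.93 CPM.

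Together, the ribosomal protein genes gave 46005 and 48396 CPM in the sgNC samples and 44530 and 44816 CPM in the sgPIKFYVE-1 samples. In the drug table they gave 40973 and 41359 CPM with DMSO, 39854 and 40418 CPM with apilimod, and 43595 and 44978 CPM with Torin-1. The difference of the sums was thus -5.36% of the control mean with sgPIKFYVE-1, -2.50% with apilimod and 7.58% with Torin-1, and in each comparison the groups did not overlap. With 2 samples against 2, the exact two-sided permutation test gave p = 0.333 in all of them, which is the smallest p it can give. In bulk RNA, fewer cells with these mRNAs and less of the mRNAs in each cell cannot be told apart. The 2 sgNC samples differed from each other nearly as much as the groups did, since 74 of the 78 genes were higher in replicate 2, by a median of 0.07 on the log2 scale. The ratio of the large to the small subunit sum was 1.77 and 1.77 with sgNC, 1.70 and 1.70 with sgPIKFYVE-1, 1.68 and 1.68 with DMSO, 1.68 and 1.68 with apilimod, and 1.74 and 1.72 with Torin-1. The ratios of sgPIKFYVE-1 and Torin-1 did not overlap with those of their controls, and those of apilimod did.

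**Figure D1:**
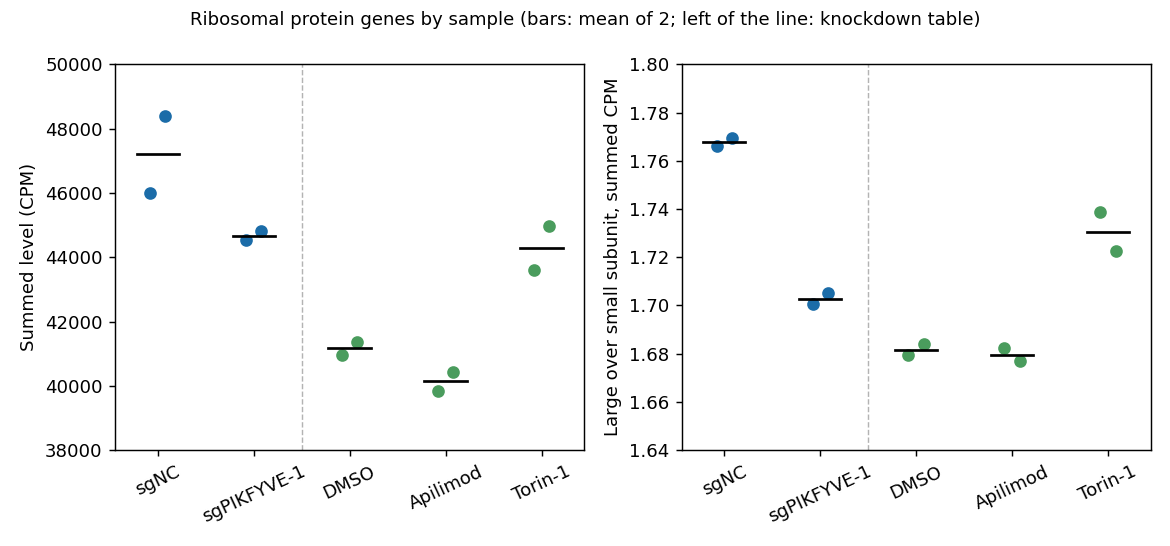
Summed level of the 78 ribosomal protein genes (left, CPM) and the ratio of large to small subunit sums (right) in each of the 10 samples; points are samples, bars the mean of 2, both axes are shown in part, and the tables on either side of the dashed line were normalized separately. With Torin-1 both samples (43595 and 44978 CPM) lie above both DMSO samples, and with sgPIKFYVE-1 both lie below both sgNC samples.

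Per kilobase of coding sequence, the genes were spread around a median of 936 CPM over the samples of the drug table. RPL41, which encodes the smallest ribosomal protein, stood at 20129 CPM per kb, followed by RPL39 at 2915 and RPS27 at 2613 CPM per kb. Among the lowest were RPS27L at 117 and RPSA at 342 CPM per kb. Coding length leaves out the untranslated ends, which raises the values of the shortest genes: RPL41 has 75 coding bases without the stop codon. RPS27L is a paralog of RPS27 with the same coding length of 252 bases. In the knockdown table RPL41 (18618 CPM per kb) was again at the top and RPS27L (119 CPM per kb) at the bottom, and Spearman's rho between the levels per kb with sgNC and with DMSO was 0.97 across the 78 genes, which share the cell line.

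Knockdown of PIKFYVE lowered more of these genes than it raised, by small amounts. Of the 78 genes, 25 fell and 9 rose at a limma adjusted p under 0.05, while 44 did not pass. Over all 13591 genes tested, 20.9% were called lower and 21.6% higher, so 25 of 78 lies above the background for lower genes and 9 of 78 below that for higher genes. The median log2 difference of the 78 genes was -0.07, against -0.0042 over all genes tested. The 25 genes fell by between 6.89% and 26.9% of the control mean. When every sample was scaled to the same total, 34 fell and 6 rose, beside 3209 lower and 2480 higher over all genes. Without a trend in the variance model 6 of the 78 fell and 1 rose, beside 1933 lower and 1776 higher of the 13591 genes. In that setting the 78 genes did not lie above the background for lower genes.

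In the large subunit 18 of 46 genes fell and 5 rose, and in the small subunit 7 of 32 fell and 4 rose. RPL6 had the lowest log2 difference of all. It was at 649.8 and 708.2 CPM with sgNC and at 497.7 and 495.3 CPM with sgPIKFYVE-1, a log2 difference of -0.45 (SE 0.046, limma adjusted p = 1.88e-07). Both knockdown samples were below both controls, and they differed from each other far less than the controls did. RPL3, which reaches towards the peptidyl transferase centre, was at 1204 and 1271 CPM with sgNC and at 947.8 and 945.5 CPM with sgPIKFYVE-1, a log2 difference of -0.39 (SE 0.040, limma adjusted p = 2.57e-07). RPL10, which joins the large subunit late in its maturation, was at 1808 and 1878 CPM with sgNC and at 1432 and 1448 CPM with sgPIKFYVE-1 (log2 -0.36, SE 0.038, limma adjusted p = 3.64e-07). RPL5 and RPL11, which form a particle with ribosomal RNA that can bind and inhibit MDM2, both fell. RPL5 fell by 19.5% and RPL11 fell by 19.2% of the control mean. RPL13A fell by 13.9%, as did RPL4.

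In the small subunit, RPS4X fell most. It was at 725.4 and 743.5 CPM in the control samples and at 574.1 and 576.3 CPM in the knockdown samples (log2 -0.35, SE 0.041, limma adjusted p = 1.02e-06). RPS6, the substrate of S6 kinase downstream of mTOR, was at 824.6 and 881.5 CPM with sgNC and at 758.7 and 733.0 CPM with sgPIKFYVE-1, and its log2 difference was -0.19 (SE 0.043, limma adjusted p = 0.00125). RPS14, the gene of the 5q- syndrome, fell by 15.1%. The values of RPS19, RPS3, RPSA and RPS27A were between 1.46% and 6.29% above the control mean and did not pass the test. RPS27 (log2 -0.10, limma adjusted p = 0.0527) and RPL22 (log2 -0.10, limma adjusted p = 0.0657) missed the threshold narrowly, and RPL36A was further from it (log2 -0.06).

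The genes that rose were RPS26, RPS28, RPLP1, RPL38, RPL41, RPS2, RPS29, RPLP0 and RPL19. RPS26 (chromosome 12, from 56041351 to 56044697 on the forward strand in GENCODE release 29), a Diamond-Blackfan anemia gene whose protein is carried to the ribosome by the chaperone TSR2, rose most. It was at 168.1 and 184.1 CPM with sgNC and at 224.0 and 240.7 CPM with sgPIKFYVE-1, a log2 difference of 0.40 (SE 0.057, limma adjusted p = 1.35e-05). RPLP1, a protein of the stalk that recruits elongation factors, was at 789.2 and 831.4 CPM with sgNC and at 971.1 and 930.7 CPM with sgPIKFYVE-1 (log2 0.23, SE 0.042, limma adjusted p = 0.00019). RPLP0, the base of the stalk, rose by 8.56% of the control mean, and RPLP2, the third stalk gene, was 5.25% above it without passing. RPL41 rose by 12.9%. RPS28 rose by 17.5%, and pseudogene entries named for it summed to 10.3% of its level in the drug table.

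The number of calls depended on single samples. With sgNC replicate 2 left out, the median log2 difference of the 78 genes was -0.038, beside 0.00078 over all genes. Without sgNC replicate 1 it was -0.089, beside -0.0035. Genes called lower whichever sample was left out included RPL3, RPL4, RPL5, RPL6, RPL10, RPL11, RPL13A, RPS4X, RPS6 and RPS14. RPS26, RPS28, RPLP1 and RPL41 were the genes called higher in each of these fits. Beside these values, the RNA encoded by the mitochondrial genome made up 68258 and 68824 CPM with sgNC and 85832 and 85188 CPM with sgPIKFYVE-1. With those genes left out before scaling to the same total, 29 ribosomal protein genes fell and 8 rose. Over all genes, 2976 were then lower and 2704 higher. The sum of the 4 epithelial markers moved from between 3952 and 4045 CPM to between 6376 and 6564 CPM. Of these 4, 2 were called higher and 0 lower, with log2 differences from -0.02 to 1.36 (median 0.11). The sum of the 9 neuroendocrine markers moved from between 7838 and 8152 CPM to between 6676 and 6886 CPM, with NEUROD1 under 1 CPM. Of the 8 tested, 4 were called lower and 0 higher. The part of these marker shifts in the result was not tested.

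**Figure D2:**
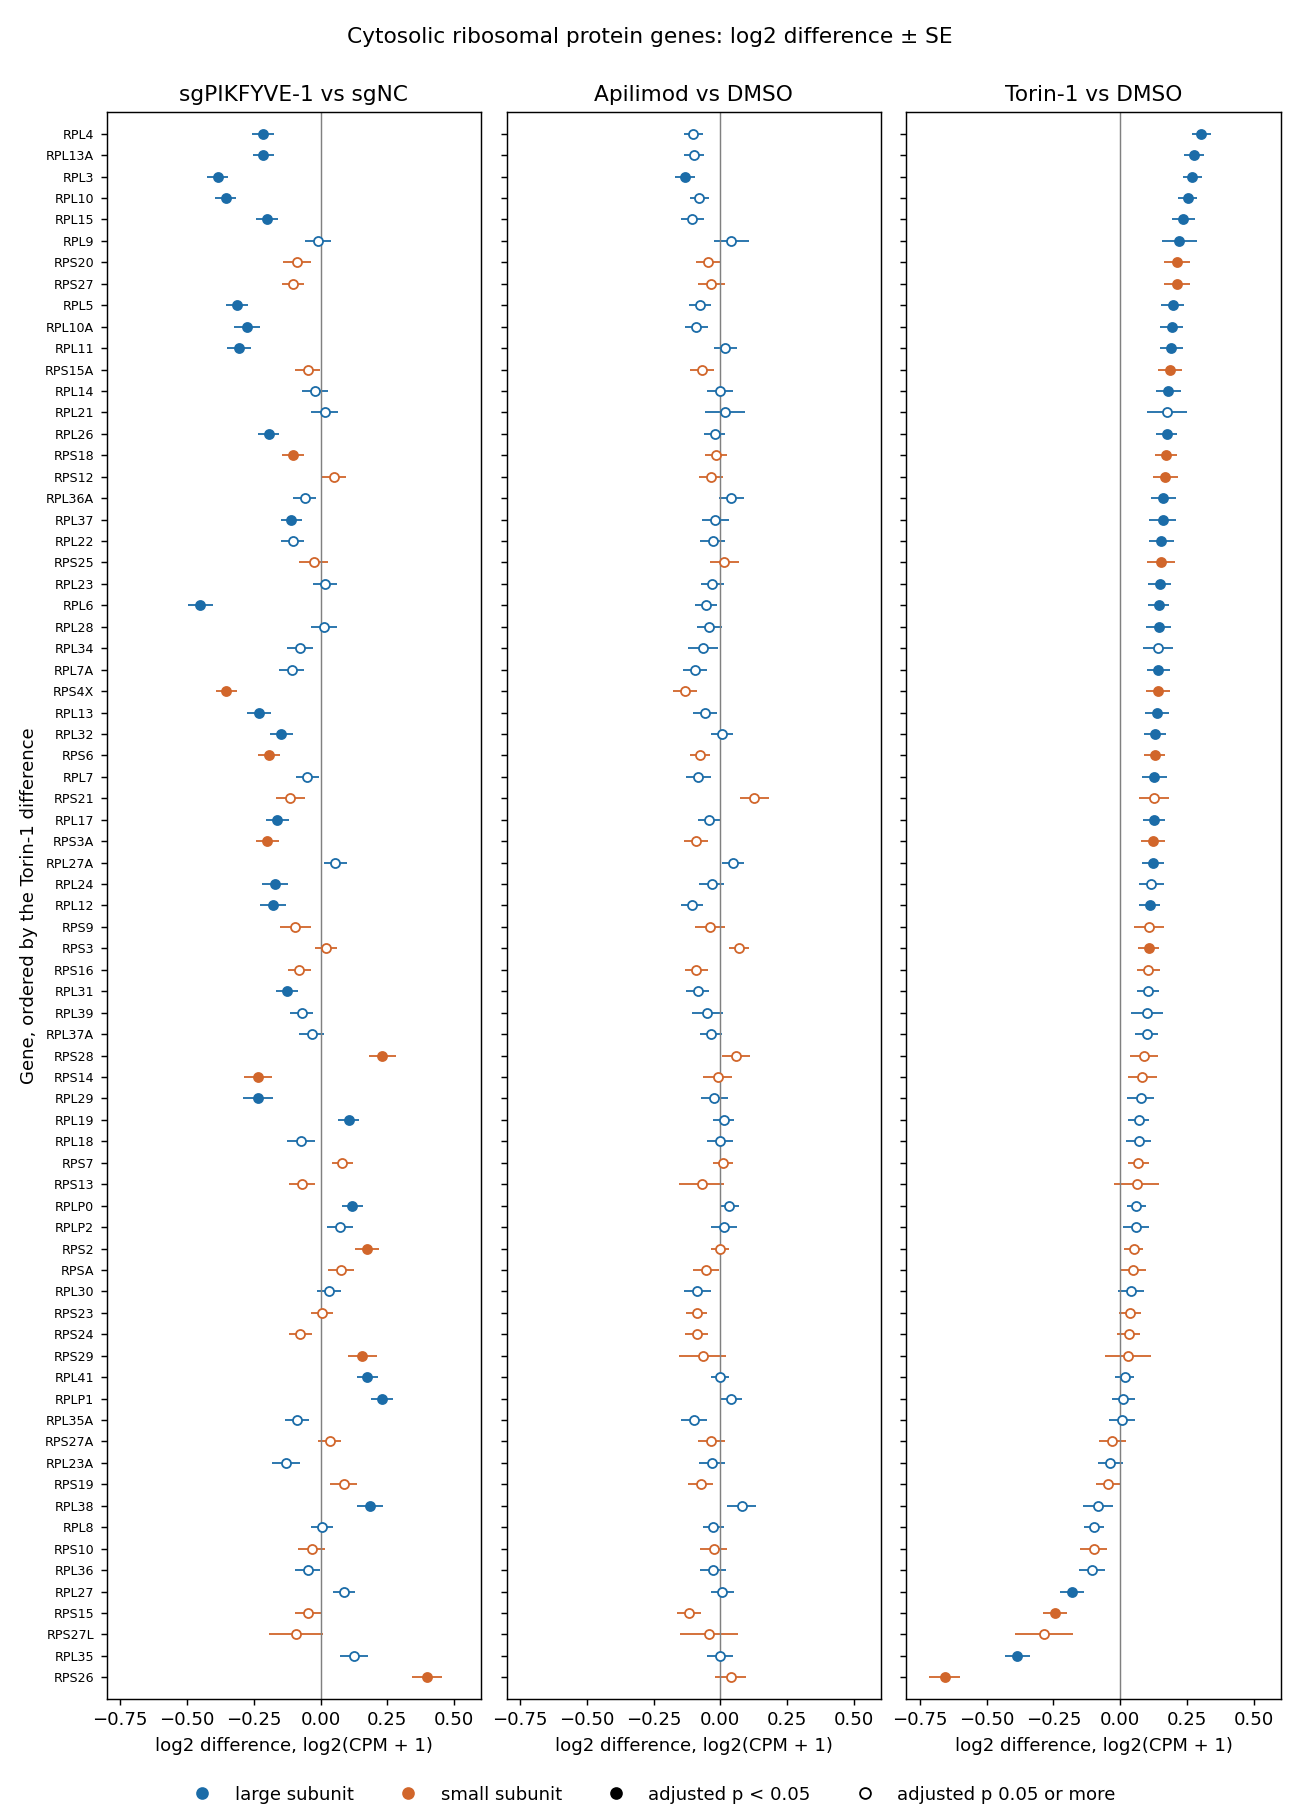
Log2 difference of 73 of the 78 genes in the 3 comparisons with a control, on log2(CPM + 1), with bars of 1 SE; blue is the large and orange the small subunit, filled points passed an adjusted p of 0.05, and genes are ordered by the Torin-1 difference. RPS26 lies at the far right with sgPIKFYVE-1 (0.40) and at the far left with Torin-1 (-0.66), and the apilimod points lie between -0.13 and 0.13.

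Apilimod, which inhibits the enzyme that the guide depletes, gave small differences in these genes. RPL3 was the single gene of the 78 to pass the limma test, and it was lower, while 0 were higher and 77 did not pass. Over all 13520 genes tested in the drug table, 2.79% were called lower and 5.75% higher with apilimod. At an unadjusted p under 0.05, 10 of the 78 were lower and 1 was higher, and the share over all genes at that threshold was not computed. RPL3 was at 973.4 and 949.6 CPM with DMSO and at 879.0 and 875.9 CPM with apilimod, a log2 difference of -0.13 (SE 0.036, limma adjusted p = 0.0383). This call was lost with any 1 sample of the DMSO or apilimod groups left out. The next lowest were RPS4X (log2 -0.13, limma adjusted p = 0.0967) and RPS15 (log2 -0.12, limma adjusted p = 0.147). The highest were RPS21 (log2 0.13, limma adjusted p = 0.199), RPL38 (0.08) and RPS3 (0.07). RPS26 was at 233.4 and 237.2 CPM with DMSO and at 238.7 and 244.8 CPM with apilimod (log2 0.04, SE 0.057). The median log2 difference of the 78 genes was -0.03, against -0.01 over all genes tested, and 59 of the 78 had a negative value. The count of lower genes depended on the scaling: it was 14 under quantile normalization (median -0.0739), 6 with every sample scaled to the same total (median -0.0653) and 9 when the mitochondrially encoded genes were left out before that scaling. Over all genes the count of lower genes also moved, from 377 to 536, 562 and 574 in these settings. The medians over all genes were then -0.0272, -0.0351 and -0.0358.

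Torin-1 raised many of the genes. Of the 78, 35 rose, 4 fell and 39 did not pass, against a background of 16.6% called higher and 21.8% called lower over all genes tested. The median log2 difference was 0.11, against -0.01 over all genes tested. The genes that rose gained between 7.63% and 23.5% of the DMSO mean. In the large subunit 24 of 46 genes rose and 2 fell, and in the small subunit 11 of 32 rose and 2 fell. The count of higher genes depended on single libraries and on the variance model. A fit without 1 DMSO or Torin-1 sample leaves 1 sample in that group, so only medians are given for it. The median log2 difference was 0.097 without DMSO replicate 1, beside -0.012 over all genes. It was 0.12 without DMSO replicate 2, beside -0.020, and 0.086 without Torin-1 replicate 2, beside -0.013. Without Torin-1 replicate 1 it was 0.14, beside -0.016. Without a trend in the variance model 4 of the 78 were higher, beside 1741 of the 13520 genes tested. In that setting the 78 genes did not lie above the background for higher genes. RPL3, RPL4, RPL5, RPL10, RPL10A, RPL11, RPL13A, RPL15 and RPS27 were called higher whichever sample was left out. All 35 were also called higher under each of 3 other scalings of the samples.

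RPL4, which lines the tunnel through which the new protein leaves, had the highest log2 difference. It was at 1134 and 1122 CPM with DMSO and at 1373 and 1412 CPM with Torin-1 (log2 0.30, SE 0.036, limma adjusted p = 2.05e-05). RPL13A was at 905.5 and 903.5 CPM with DMSO and at 1083 and 1107 CPM with Torin-1 (log2 0.28, SE 0.037). Its protein is known for a second role, outside the ribosome, in silencing of inflammatory mRNAs. RPL3 was at 1162 and 1158 CPM with Torin-1, above both DMSO samples (log2 0.27, SE 0.036), and RPL10 at 1546 and 1575 CPM against 1284 and 1335 CPM with DMSO (log2 0.25, SE 0.036). RPS6 was at 685.3 and 679.6 CPM with DMSO and at 739.7 and 752.6 CPM with Torin-1, a log2 difference of 0.13 (SE 0.039, limma adjusted p = 0.0177). RPL5 rose by 14.6%, RPL11 by 14.3%, RPS27 by 15.9%, RPS4X by 10.4%, RPL22 by 11.3% and RPL36A by 11.9%. RPS3, whose protein also acts in DNA repair, rose by 7.63%. The stalk genes RPLP0, RPLP1 and RPLP2 were 4.31%, 0.87% and 4.18% above the DMSO mean and did not pass, nor did RPL41, RPS14, RPS19, RPS27A and RPSA.

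The 4 genes that fell with Torin-1 were RPS26, RPL35, RPS15 and RPL27. RPS26 was at 233.4 and 237.2 CPM with DMSO and at 141.6 and 156.3 CPM with Torin-1, a log2 difference of -0.66 (SE 0.057, limma adjusted p = 1.2e-06). Both Torin-1 samples were below both DMSO samples, and the mean fell by 36.7%. RPL35, which sits next to the exit of the tunnel, was at 375.3 and 378.4 CPM with DMSO and at 297.1 and 280.0 CPM with Torin-1 (log2 -0.38, SE 0.047, limma adjusted p = 2.62e-05). RPS15 was at 364.2 and 357.6 CPM with DMSO and at 305.1 and 303.9 CPM with Torin-1 (log2 -0.24, SE 0.045). RPL27 fell by 11.8% of the DMSO mean. RPS26, RPL35 and RPS15 were called lower under every alternative tried, whereas the call of RPL27 was lost under at least 1. RPS27L, from 29.8 to 33.9 CPM with DMSO and from 24.1 to 27.8 CPM with Torin-1, lay just outside the threshold (log2 -0.29, SE 0.11, limma adjusted p = 0.05002), and its paralog RPS27 rose.

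**Figure D3:**
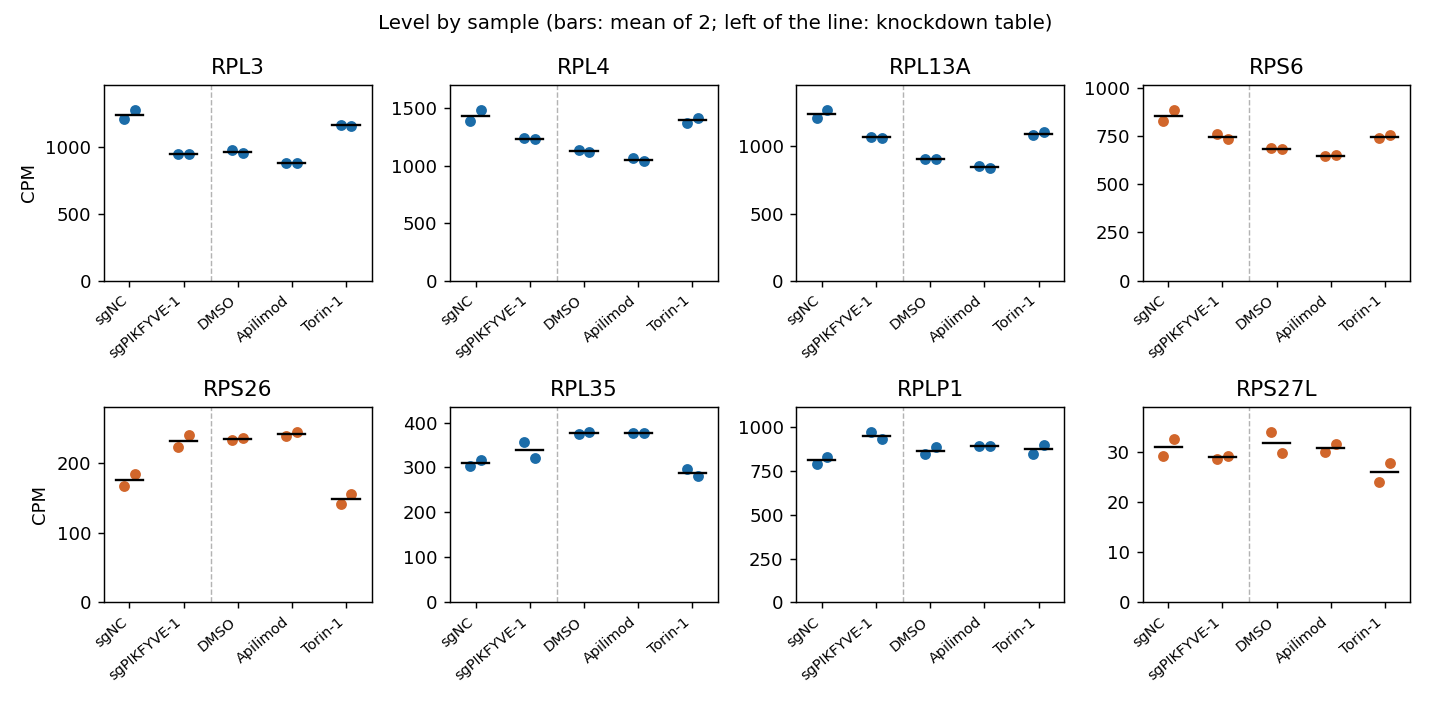
Level (CPM) of 8 ribosomal protein genes in each sample, axes starting at 0; points are samples, bars the mean of 2, blue is the large and orange the small subunit, and the dashed line separates the tables. RPS26 is highest with sgPIKFYVE-1 in its table (224.0 and 240.7 CPM) and lowest with Torin-1 in the other (141.6 and 156.3 CPM).

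The effects of the drugs were compared directly within the fit of the 6 drug samples. Between Torin-1 and apilimod, 40 of the 78 genes were higher with Torin-1 and 5 were lower, against 20.5% and 26.2% of all genes tested. The median log2 difference was 0.14. Without a trend in the variance model 13 of the 78 were higher and 2 lower, beside 2407 higher and 2988 lower over all genes tested. In that setting the 78 genes did not lie above the background for higher genes. Under quantile normalization 62 were higher and 2 lower (median 0.24), beside 3232 and 3009 over all genes. RPL4 (log2 0.41, SE 0.036, limma adjusted p = 7.67e-07), RPL3 (0.40) and RPL13A (0.37) were farthest above, and RPS26 (log2 -0.70, SE 0.057, limma adjusted p = 3.41e-07), RPL35 (-0.38) and RPS27L (-0.25) farthest below, of which RPS27L did not pass (limma adjusted p = 0.0773). RPS6 was 15.2% higher with Torin-1 than with apilimod. RPL38, RPS15 and RPL27 were lower with Torin-1, and these 3 calls were lost under at least 1 other scaling. The neuroendocrine marker sum was between 9483 and 9694 CPM with Torin-1, between 6424 and 6645 CPM with apilimod and between 7499 and 7514 CPM with DMSO, NEUROD1 again under 1 CPM. Of the 8 markers tested, 5 were higher and 2 lower with Torin-1 than with apilimod, and 4 were higher and 2 lower than with DMSO. The part of these markers in the result was not tested.

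The knockdown and Torin-1 comparisons share no sample, so their calls could be set side by side. Of the 25 genes that fell with sgPIKFYVE-1, 20 rose with Torin-1, which is 20 of the 35 that rose, among them RPL3, RPL4, RPL5, RPL6, RPL10, RPL10A, RPL11, RPL12, RPL13, RPL13A, RPL15, RPL17, RPL26, RPL32, RPL37, RPS3A, RPS4X, RPS6 and RPS18. Of the 9 genes that rose with sgPIKFYVE-1, RPS26 was the single one that fell with Torin-1. None of the 78 (0 genes) was called in the same direction in both, although 21 had values above 0 in both and 5 had values below 0 in both. Opposite calls were common across the transcriptome as well: of the 2774 genes lower with sgPIKFYVE-1 among 13235 tested in both tables, 905 (32.6%) were higher with Torin-1 and 290 (10.5%) lower. Of the 2219 genes higher with Torin-1, 905 (40.8%) were lower with sgPIKFYVE-1. Of the 2894 genes higher with sgPIKFYVE-1, 1373 (47.4%) were lower with Torin-1, a larger share than the 1 of 9 among the ribosomal protein genes. Across the 78 genes, the log2 differences had a Pearson r of -0.56 and a Spearman rho of -0.58, and across all 13235 genes -0.33 and -0.37. These describe genes of the same libraries, which are not independent. RPL24, RPL29, RPL31 and RPS14 fell with sgPIKFYVE-1 without passing for Torin-1, which does not show that the effects differ.

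**Figure D4:**
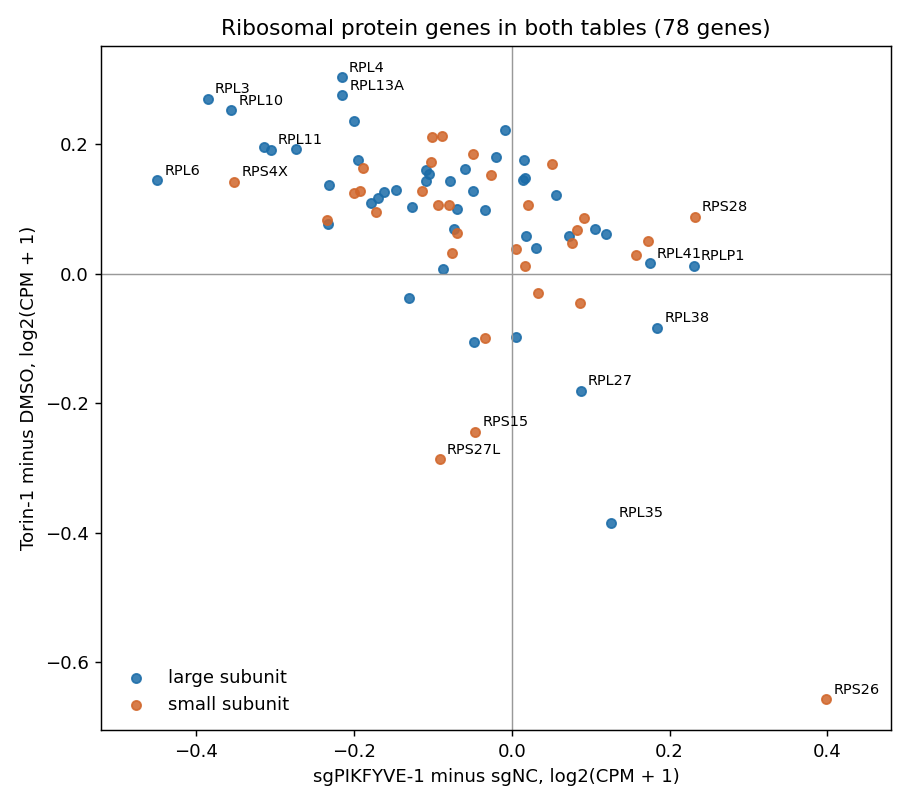
Log2 difference with sgPIKFYVE-1 (horizontal) against that with Torin-1 (vertical), on log2(CPM + 1), for the 78 genes; each point is a gene, coloured by subunit. The upper left holds 45 of the 78 points, and RPS26 lies farthest to the lower right (0.40 and -0.66); Pearson r is -0.56.

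Long and short genes were then counted apart. Of the 39 genes with a coding length over the median of 454.5 bases, 20 fell and 3 rose with sgPIKFYVE-1 and 22 rose and 0 fell with Torin-1. Among the 39 shorter genes, 5 fell and 6 rose with sgPIKFYVE-1, and 13 rose and 4 fell with Torin-1. Spearman's rho between log2 coding length and the log2 difference was -0.37 with sgPIKFYVE-1, -0.30 with apilimod and 0.32 with Torin-1 over 78 genes. These points share the libraries, and the part of length in the differences was not tested. The log2 mean level had a rho of 0.29 with the Torin-1 difference. The length of the run of C and T at the annotated start had a rho of -0.01 for sgPIKFYVE-1 and -0.02 for Torin-1 over 63 genes. With a TOP start, 19 of 46 genes rose with Torin-1 and 1 fell, and without one 9 of 17 rose and 3 fell. With sgPIKFYVE-1, 13 of the 46 fell and 4 rose, and 8 of the 17 fell and 4 rose. These classes rest on the annotated start base, since a run beginning within 10 bases of it was found in 57 of the 63 genes. Whether the classes differ was not tested.

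Other TOP genes encode translation factors and a few further proteins. With Torin-1, 11 of 14 rose, 0 fell and 3 did not pass, against 16.6% of all genes called higher. The median log2 difference of the 14 was 0.25. EIF4B, a helper of the helicase that unwinds mRNA, had the highest value, at 914.1 CPM with Torin-1 and 515.7 CPM with DMSO (means of 2, log2 0.82), and EEF2, which moves the ribosome along the mRNA, followed (log2 0.66). EEF1B2 was lowest (0.06) and did not pass. With sgPIKFYVE-1, 7 of 14 fell, 0 rose and 7 did not pass (median -0.10), against 20.9% of all genes called lower. EIF3H, a subunit of initiation factor 3, had the lowest value (log2 -0.28, SE 0.050, limma adjusted p = 0.000193) and EEF1D the highest (0.07, not passed). With apilimod, EEF1A1 (log2 -0.14) and HNRNPA1 (-0.13) fell, and EEF1D had the highest value (0.03).

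Of 54 ribosome biogenesis genes, whose products assemble ribosomes, 33 rose, 0 fell and 21 did not pass with sgPIKFYVE-1 (median log2 difference 0.29), against 21.6% of all genes called higher. With Torin-1, 4 rose, 42 fell and 8 did not pass (median -0.37), against 21.8% of all genes called lower. With apilimod 1, the nucleolin gene NCL, rose and 0 fell. RRP9, which acts on the precursor of small subunit RNA, rose most with sgPIKFYVE-1 (log2 0.82, SE 0.16, limma adjusted p = 0.000488), and POLR1D was lowest without passing (-0.08). NOP2, an RNA methyltransferase of the nucleolus, fell most with Torin-1, to a mean of 49.3 CPM from 98.7 CPM (log2 -0.98), and NOB1, the nuclease of the last step of small subunit RNA processing, rose most (0.92). With apilimod, UTP15 was highest (0.22) and BOP1 lowest (-0.17), neither of which passed. Of 77 genes of the mitochondrial ribosome, a separate machine, 35 rose, 5 fell and 37 did not pass with sgPIKFYVE-1 (median 0.25). Over all genes, 21.6% were called higher and 20.9% lower. With Torin-1, 4 rose, 39 fell and 34 did not pass (median -0.25), against 21.8% of all genes called lower. With apilimod 4 rose and 0 fell, against 5.75% of all genes called higher. MRPS15 (0.56) and MRPS36 (-0.91) marked the ends with sgPIKFYVE-1, MRPL10 (0.62) and MRPS6 (-0.94) with Torin-1, and MRPL49 (0.52) and MRPL16 (-0.31, not passed) with apilimod.

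Of 15 chaperones of single ribosomal proteins and regulators of TOP mRNAs, 6 rose, 0 fell and 9 did not pass with sgPIKFYVE-1. The share of all genes called higher was 21.6%. With Torin-1, 2 rose, 7 fell and 6 did not pass, against 21.8% of all genes called lower. With apilimod 2 rose and 0 fell, against 5.75% of all genes called higher. TSR2, the chaperone of RPS26, had a mean of 36.2 CPM with sgNC and 46.0 CPM with sgPIKFYVE-1 (log2 0.34, SE 0.088, limma adjusted p = 0.00426), and of 47.3 CPM with DMSO and 30.7 CPM with Torin-1 (log2 -0.61, SE 0.090, limma adjusted p = 0.000134). It was thus higher and lower in the same comparisons as RPS26. GRWD1, a chaperone of RPL3, rose with sgPIKFYVE-1 (0.60) and had the lowest value with Torin-1 (-0.81), while RPL3 itself went the other way in both. LARP1 rose with sgPIKFYVE-1 (log2 0.46) and apilimod (0.17) and fell with Torin-1 (-0.25). MYC, which drives ribosome biogenesis, was highest of the list in all 3 comparisons, with log2 differences of 0.61 with sgPIKFYVE-1, 0.23 with apilimod and 0.57 with Torin-1, all past the threshold. PDCD2, a chaperone of RPS2, was lowest with sgPIKFYVE-1 (-0.09), and LARP1B lowest with apilimod (-0.27), neither of which passed.

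Among paralogs and fusion genes outside the name rule, RPL22L1 fell with sgPIKFYVE-1 from a mean of 10.5 to 6.90 CPM (log2 -0.53, limma adjusted p = 0.0185), and RPL39L (0.49) and RPL7L1 (0.31) rose. With Torin-1, RPL39L (-0.51), RPL36AL (-0.37) and RPL7L1 (-0.34) fell, while RPL39 and RPL36A lay above the DMSO mean and RPL36A passed. With apilimod, 0 of 8 passed in either direction. FAU, which encodes a ribosomal protein fused to a ubiquitin-like protein, did not pass in any of the 3 comparisons, nor did RPS27A, a fusion with ubiquitin. RPL26L1 and RPL3L did not pass either, the latter near 1 CPM, and RPL10L was listed at 0 in all samples.

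**Figure D5:**
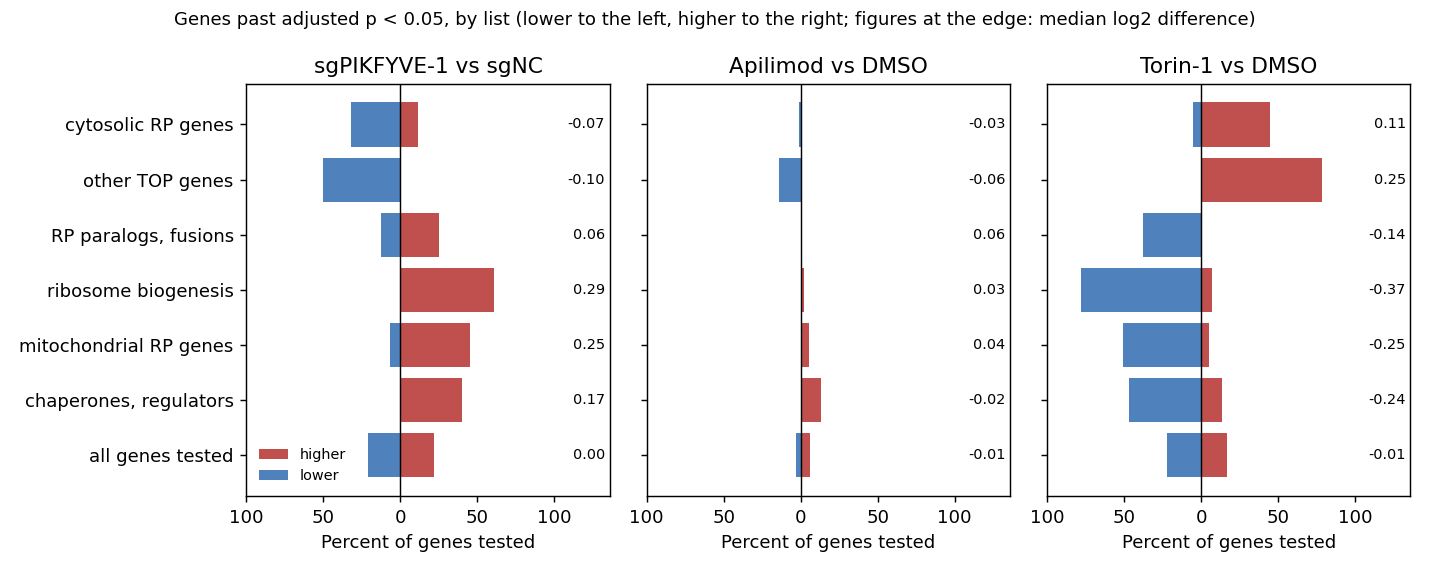
Percent of the genes tested in each list that were called higher (right) or lower (left) at an adjusted p under 0.05, in the 3 comparisons with a control; the figures at the edge are median log2 differences. Ribosome biogenesis genes have a median of 0.29 with sgPIKFYVE-1 and -0.37 with Torin-1, opposite in sign to the cytosolic ribosomal protein genes at -0.07 and 0.11.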

How the data were processed

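The authors demultiplexed with bcl2fastq 2.20, trimmed with Trimmomatic, summed transcript estimates to genes and scaled by TMM in edgeR. The deposited values are a signal on the CPM scale, with samples summing to between 972493 and 1024332, in 2 tables normalized separately. The quantifier and annotation are not given in the sources used here. The labels name depletion of ribosomal RNA and the methods oligo(dT) selection. Plain CPM had been assumed, and the same log-scale test was used. Between 78.4% and 81.7% of low values were whole reads (tolerance 0.05), too few for counts.

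Genes whose mean reached 1 CPM were fitted on log2(CPM + 1), a scale that understates changes of low genes, with limma 3.58.1 in R 4.3.3 (eBayes with a trend, Benjamini-Hochberg over all genes tested, threshold 0.05), 4 samples in the knockdown fit and 6 in the drug fit. The procedure was tested on simulated data. Subunit, length and start classes were descriptions. Genes named are those with a known role, the 3 highest and lowest per comparison and per kb, list extremes, paralogs and PIKFYVE; others named singly were chosen after their values were seen. Members and lists were chosen with earlier results of these data known. Positions and coding lengths are from GENCODE release 29 and RefSeq. No promoter entry was found for 15 genes, among them RPL5, RPL7, RPL8, RPL23, RPL23A, RPL30, RPL37, RPS2, RPS15A and RPS20. A few genes count in the totals but are not reported here singly. Alternatives were another pseudocount, 2 other filters, 3 scalings, no trend, a replicate block, pseudogene entries summed, only the compared groups and each sample left out. Leaving out genes of the mitochondrial genome was added after seeing the data. Python 3.11.15 and matplotlib 3.10.9 served for the plots.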

Additional observations from a re-analysis of the deposited data

Results flagged for a closer look

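The effects of Torin-1 and apilimod on the ribosomal protein genes differed by limma's test of the difference itself, in 40 genes that were higher and 5 that were lower with Torin-1. Over all genes tested, 20.5% were higher and 26.2% lower. Without a trend in the variance model the counts for the ribosomal protein genes were 13 and 2, beside 2407 and 2988 over all genes. In that setting they did not lie above the background for higher genes. Under quantile normalization the counts were 62 and 2, beside 3232 and 3009 over all genes. Among the named genes of the large subunit, the log2 difference of Torin-1 minus apilimod was 0.41 for RPL4, 0.40 for RPL3, 0.37 for RPL13A, 0.33 for RPL10, 0.27 for RPL5, 0.20 for RPL6, 0.18 for RPL22 and 0.17 for RPL11. It was -0.16 for RPL38 and -0.38 for RPL35. In the small subunit it was 0.27 for RPS4X, 0.25 for RPS27, 0.20 for RPS6, -0.13 for RPS15 and -0.70 for RPS26. Groups of 2 are too small to look for a sample far from the others.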

How the results depend on the processing

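With 2 samples a group, limits come from single libraries and the variance model. No call of a named gene changed sign under an alternative: of 1950 values, 84 lost a call, 98 gained one, and 50 differed in sign without passing in either. Medians and sums kept their sign. The genes called in every setting were RPL10, RPL11, RPL3, RPL5, RPL6 and RPS4X (lower) and RPS26 (higher) with sgPIKFYVE-1, and RPL10, RPL13A, RPL3 and RPL4 (higher) and RPL35, RPS15 and RPS26 (lower) with Torin-1. The cause of the shifts was not tested.

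Without a variance trend, 1 gene was higher and 6 lower with sgPIKFYVE-1, 0 lower with apilimod, 4 higher with Torin-1, and 13 higher and 2 lower with Torin-1 than with apilimod. Over all genes tested, 1776 were then higher and 1933 lower with sgPIKFYVE-1, 97 lower with apilimod and 1741 higher with Torin-1. Between the drugs, 2407 of all genes were higher and 2988 lower with Torin-1. Without a filter, 4 were higher and 15 lower with sgPIKFYVE-1, 0 lower with apilimod and 20 higher with Torin-1. Over all genes, 2064 were then higher and 1973 lower with sgPIKFYVE-1, 137 lower with apilimod and 1639 higher with Torin-1. Under quantile normalization, 14 were lower with apilimod (median -0.0739) and the Torin-1 median was 0.16. Between the drugs, 62 were then higher and 2 lower with Torin-1 (median 0.24). Over all genes, 536 were lower with apilimod, and 3232 were higher and 3009 lower with Torin-1 than with apilimod. Scaled to the same total, medians were -0.11 with sgPIKFYVE-1, -0.0653 with apilimod (6 lower), 0.14 with Torin-1 and 0.20 between the drugs (3 lower), and the sums differed by -8.02%, -4.57%, 9.90% and 15.2%. Over all genes, 562 were then lower with apilimod and 2962 lower with Torin-1 than with apilimod. Under this scaling 43.6% of all genes called with sgPIKFYVE-1 were higher, against 50.8%, and the median over all genes was -0.043 against -0.0042. With apilimod 54.2% of the genes called were higher, against 67.4%. It was 48.8% against 43.2% with Torin-1, and 53.4% against 43.8% between the drugs. Under median centring the Torin-1 median was 0.14, and that between the drugs 0.19 (3 lower, beside 3047 over all genes). Without mitochondrially encoded genes, 9 were lower with apilimod (median -0.0657), the Torin-1 median was 0.14 and that between the drugs 0.20 (3 lower). Over all genes, 574 were then lower with apilimod and 2948 lower with Torin-1 than with apilimod.

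Deviations of same-numbered samples correlated weakly, at 0.037 to 0.104. That does not settle whether the replicate numbers pair the samples, and the main fits took the samples as unpaired. With a replicate block, 10 were higher and 29 lower with sgPIKFYVE-1, 7 lower with apilimod, and 43 higher and 8 lower with Torin-1. Over all genes, 3102 were then higher and 3009 lower with sgPIKFYVE-1, 701 lower with apilimod, and 2546 higher and 3357 lower with Torin-1. In the fits listed next, the group that lost a sample holds 1, and counts over all genes moved as well. Those counts therefore do not show whether the ribosomal protein genes lay above the background. The medians over all genes were then -0.0047 to 0.00078 with sgPIKFYVE-1 and -0.0098 to -0.0023 with apilimod. They were -0.020 to -0.011 with Torin-1 and -0.024 to -0.019 between the drugs.

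With each sample left out in turn, 4 to 8 were higher and 16 to 27 lower with sgPIKFYVE-1 (median -0.0891 to -0.0382, sum -7.69% to -2.90%). With apilimod 0 to 1 were lower (median -0.0565 to -0.0189, sum -3.19% to -1.82%). With Torin-1 10 to 35 were higher and 3 to 5 lower (median 0.086 to 0.138, sum 5.90% to 9.26%). Between the drugs 31 to 46 were higher and 3 to 5 lower (median 0.11 to 0.17, sum 8.62% to 12.1%), the 3 without Torin-1 replicate 1 or without either apilimod sample.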

Other observations

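The read-through entry RPS10-NUDT3, which can share reads with RPS10, was at 7.95 and 10.8 CPM with DMSO, 8.25 and 12.3 CPM with apilimod and 1.01 and 1.95 CPM with Torin-1, and at 3.85 and 11.4 CPM with sgNC and 10.3 and 13.8 CPM with sgPIKFYVE-1. The pseudogene entry RPL23AP42 was at 378.9 to 404.6 CPM in the drug table, about the level of RPL23A, and the values of RPL23A are uncertain by the reads that the counting could split between them. Of the 78 genes, 3 had pseudogene entries above 5% of their own level, and for the rest the share was at most 2.24%.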
